A study of Mus musculus with 38 samples.

Results

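The genes described are those of the cytosolic ribosomal proteins in mouse brown adipose tissue. They were chosen by name, as the gene names on the array that start with Rpl or Rps and a number, together with Rplp0, Rplp1, Rplp2 and Rpsa, without the Rps6k kinases and without names marked as pseudogenes. This gave 86 of the 29411 gene names on the array. Of these, 46 belong to the large subunit and 31 to the small subunit. The other members are 8 paralogs (Rpl3l, Rpl7l1, Rpl10l, Rpl22l1, Rpl36al, Rpl39l, Rps27l and Rps4y2) and 1 binding protein, Rps19bp1, which is not a subunit of the ribosome. Every member except Rpl10l was bright enough on enough arrays to be tested, which left 85 members among 21625 genes tested.

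C57BL/6J mice were given a low fat diet (LFC), a high fat diet with added sucrose (HFC), or that second diet plus Kal-1, an aqueous herbal formulation, in doses of 5, 20 or 75 µg (HF5, HF20 and HF75). The animals entered the groups as weaned mice, and no group carried a genetic change. LFC and HFC had 10 arrays each, from Days 6, 10 and 14 and from Weeks 0, 3, 6, 9, 12, 15 and 18, and each dose had 6 arrays, from Weeks 3 to 18. The design text of the series speaks of 3 biological replicates, whereas the labels used here give 1 array for every group at a time point. Replicates are therefore the different time points, and whether an array holds the RNA of 1 animal or of a pool is not given in the sources used here. Weeks were counted from Day 14, so Week 0 and Day 14 are the same day on the diet.

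The ribosome joins a large and a small subunit, each made of ribosomal RNA and of many proteins that are needed in matched amounts. Their messages form a known family, because most begin with a cytosine followed by a run of pyrimidines, and their translation is set through this start by the mTORC1 kinase. In brown adipose tissue, whose cells burn fat for heat in mitochondria, a separate set of ribosomal proteins encoded in the nucleus (the Mrpl and Mrps genes) serves the ribosomes of the mitochondria, and these were used for comparison.

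The stretches around the transcription start show this shared feature in some of the members the results turn on and its absence in others. Each run below holds the 20 bases before and the 10 bases after a RefSeq transcription start on the GRCm38.p6 assembly, written on the strand of the gene. Capitals mark the longest run of C and T that starts with C, where one of 5 or more bases reaches within 10 bases of the start. Rpl27a and Rplp2, which differed among the doses, Rpl35, whose values followed the other members most closely, Rps24, Rps6 and Rps10 hold such a run.
Rpl27a (chr7:109519175-109519204, + strand): cgcgagacttcgtgagCTCCTCCCTTTTCC
Rplp2 (chr7:141447631-141447660, + strand): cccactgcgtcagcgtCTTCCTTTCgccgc
Rpl35 (chr2:39005122-39005151, - strand): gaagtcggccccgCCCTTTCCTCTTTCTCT
Rps24 (chr14:24490658-24490687, + strand): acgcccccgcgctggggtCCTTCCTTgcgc
Rps6 (chr4:86857358-86857387, - strand): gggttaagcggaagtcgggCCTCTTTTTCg
Rps10 (chr17:27635235-27635264, - strand): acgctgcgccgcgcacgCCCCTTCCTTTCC
The windows of Rps19, Rpl36al, Rpl7l1 and Rps19bp1, which come up in the comparisons at 20 µg, hold none.
Rps19 (chr7:24884572-24884601, + strand): agcactccgaaatctcgcgagactcgacgc
Rpl36al (chr12:69184058-69184087, - strand): gttcgcattcccgtcgctcaggttcagttc
Rpl7l1 (chr17:46782647-46782676, - strand): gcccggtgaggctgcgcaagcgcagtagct
Rps19bp1 (chr15:80264297-80264326, - strand): accgccagggcggaagtagctcgccgcgtg

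These are examples, and whether the run went with how the members' values moved was not tested. Rps27l and Rpl4, which correlated negatively with the other members over all arrays, each have a start with such a run. Their runs begin at -12 and -17 relative to the start. Rps3, Rpl9, Rps13 and Rplp0, which followed the others closely (correlations of 0.93, 0.93, 0.92 and 0.92 over 38 arrays), have none. The promoter table listed 65 of the 86 members. A C at the annotated start followed by 4 bases that are each C or T was found in 13 of these 65 (20.0%), against 813 of the 27025 genes of the table (3.01%) and 0 of 69 mitochondrial ribosomal protein genes. The second search took a run of 8 bases, a C and then C or T only, lying wholly within the 10 bases on either side of the start. It was found in 20 members (30.8%), in 1787 genes of the table (6.61%) and in 5 mitochondrial ribosomal protein genes (7.25%). On the opposite strand the same run was found in 2 members (3.08%) and in 2075 genes of the table (7.68%). The 2 searches overlap, since a run of 8 bases can lie on the start itself. None of the 7 members that correlated negatively with the others met either search, and Rps3, Rpl9, Rps13 and Rplp0 did not either. A match is a description of these letters, and an annotated start can lie some bases from the one used in this tissue. For a gene with more than 1 annotated start a match at any of them was counted.

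All values below are log2 signal relative to the 75th percentile of the same array, with the brightest of the probes of a gene kept. Such a value compares 1 gene between arrays and does not rank genes. Signal well above background was measured for 84 members on all 38 arrays. Rpl3l, the paralog of Rpl3 found in muscle, reached it on 17 arrays, and Rpl10l, a paralog known from testis, on 0 arrays. Of the kept probes 5 were designed on predicted gene models, those of Rplp0, Rpl21, Rpl36, Rps25 and Rps27, and near-identical copies of ribosomal protein genes can add signal to any of these probes.

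Of the 15 brown adipocyte markers 11 were well above background on all 38 arrays, among them Ucp1, the uncoupling protein of brown fat, with values from -3.08 to 8.57. Dio2 reached it on 37, Zic1 on 36, Elovl3 on 34 and Lhx8 on 20. The HF75 array of Week 3 stood apart, with a mean of these markers of -1.11, where the other 37 arrays lay between 1.28 and 4.31. It also had the highest mean of the white adipocyte genes, 0.34, and the lowest median of the mitochondrial ribosomal protein genes, 0.87. The members' median and some members at 75 µg, and the calls among the doses, are given without it as well. Other values include it, among them those over bright arrays, the correlations and the paralogs at 75 µg. The arrays differed in brightness, and this touches most results below. On 11 arrays, called bright here, the 75th percentile was 625.4 to 1209 intensity units, and on the other 27, called dim, it was 35.1 to 429.8. Bright arrays made up 4 of 10 in LFC (Weeks 0, 3, 9 and 12), 2 of 10 in HFC (Day 10 and Week 3), 0 of 6 in HF5, 4 of 6 in HF20 (Weeks 3, 6, 12 and 15) and 1 of 6 in HF75 (Week 3). The scanner reached its upper limit for 13 to 38 members on each bright array and for 0 to 12 on each dim array, and such saturated spots understate the signal.

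The level of the members was lower on the bright arrays. The median over the members averaged 5.71 on the bright arrays (5.49 to 5.91) and 6.13 on the dim arrays (5.50 to 6.73), so the ranges overlapped. Mitochondrial ribosomal protein genes went the other way, with a median of 3.03 on bright and 1.60 on dim arrays. The 12 genes of the skeletal muscle list averaged -0.38 on the bright arrays (-5.37 to 4.39) and -1.02 on the dim arrays (-2.83 to 5.26). The 15 brown adipocyte genes averaged 3.21 on bright arrays (-1.11 to 4.31, the lowest being HF75 at Week 3) and 2.15 on dim arrays (1.28 to 3.43), and the 6 erythroid genes tested averaged -0.78 and 2.14. Lymphocyte genes (12) averaged -3.76 and -2.92, macrophage genes (10) -0.05 and -0.34, and white adipocyte genes (5 tested) -1.41 and -2.90. The part of these lists, and of brightness, in the results below was not tested apart from the alternatives given beside them. In whole tissue, fewer cells of a type and less RNA per cell cannot be told apart.

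**Figure D1:**
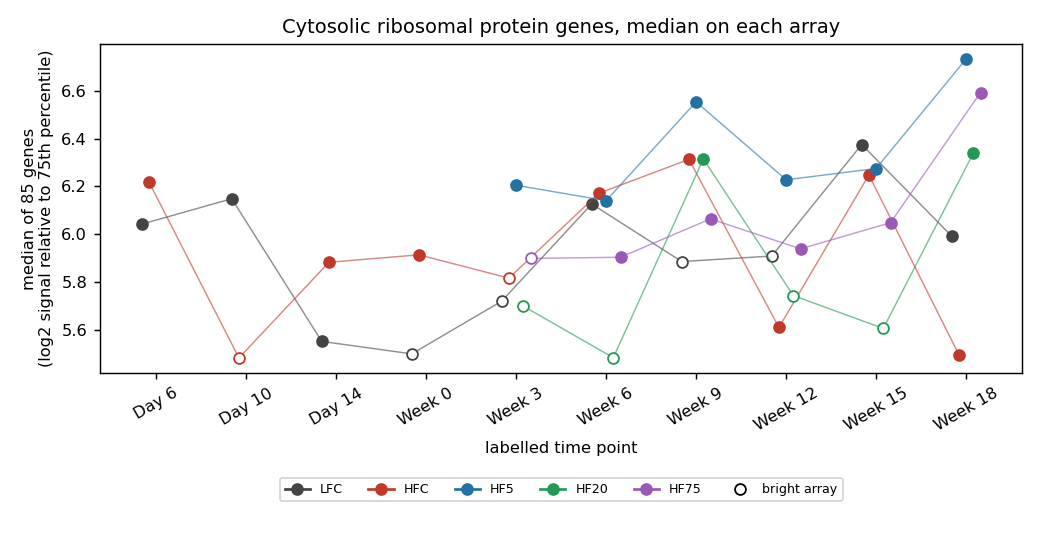
Median log2 signal, relative to the 75th percentile of the array, over the 85 members tested on each of the 38 arrays, by labelled time point and group, with bright arrays drawn open. The open points lie between 5.49 and 5.91, and the highest point, 6.73, is the HF5 array of Week 18.

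The difference between bright and dim arrays went with saturation. It was negative for 73 members and positive for 12. Among the 42 members that were never saturated the median difference was -0.34, with 30 of 42 lower on bright arrays and a range from -1.74 to 1.45. Among the 18 members saturated on 1 to 5 arrays it was -0.60, and all 18 were lower. Among the 25 members saturated on over 5 arrays it was -1.22, all 25 were lower, and the range was -2.18 to -0.26.

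Rps23, a protein of the decoding centre of the small subunit, was saturated on 22 arrays, the highest number of any member, followed by Rps18 on 18 and by Rplp1, Rplp2, Rps12 and Rps20 on 16 each. For 14 members every bright array lay below every dim array, a count that was not made for all genes. A partly overlapping set of 14 members, with Rpl7a and Rpl36 in both sets, had a saturated kept probe and a second probe that was never saturated. For 12 of the members with such a second probe it was lower by less on bright arrays, or not lower. For Rpl7a the kept probe differed by -1.61 and the second by 0.31, for Rpl36 by -1.25 and 0.09, and for Rps3 by -0.97 and -0.00052. The exceptions were Rpl23, with -0.40 and -0.46, and Rps21, with -0.65 and -1.06.

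The members that were higher on bright arrays were never saturated. They included Rpl3l with 1.45, Rps19 with 1.43, Rps27l, a paralog of Rps27 that p53 induces, with 1.09, Rps19bp1, which binds Rps19, with 1.06, and Rpl36al, a paralog of Rpl36a, with 0.84. Rps19 is a protein of the small subunit that is mutated in Diamond-Blackfan anaemia.

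**Figure D2:**
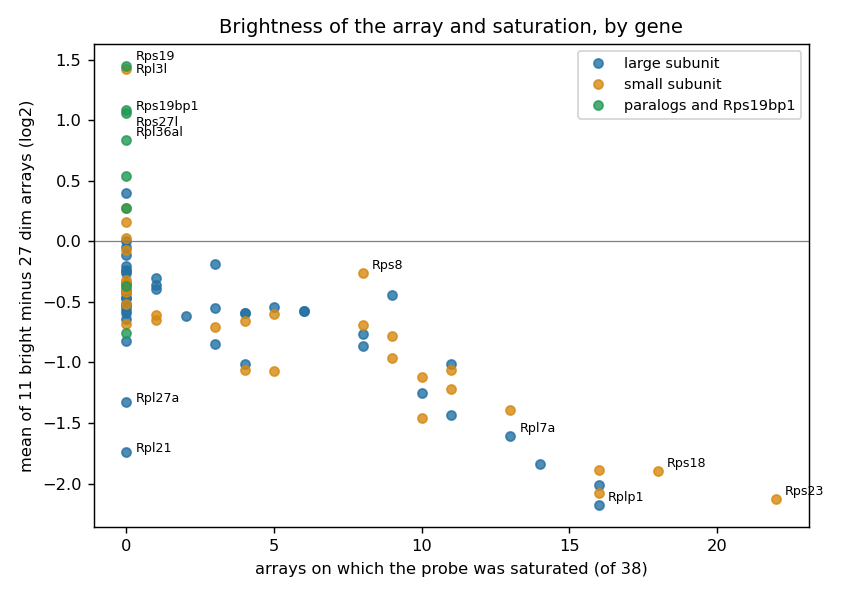
Mean log2 value on the 11 bright arrays minus that on the 27 dim arrays, against the number of arrays on which the kept probe was saturated, for each member tested, with colours for the large subunit, the small subunit, and the paralogs with the binding protein. All members saturated on over 5 arrays lie between -2.18 and -0.26, while those never saturated lie between -1.74 and 1.45.

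Most members varied together over the arrays, which is given here as a description, since the arrays share brightness and scaling. Over all pairs of members the median Pearson correlation was 0.52 on 38 arrays, 0.48 on the 27 dim arrays and 0.27 on the 11 bright arrays. Among members never saturated it was 0.25, 0.35 and 0.14. Pairs of mitochondrial ribosomal protein genes had 0.88, 0.57 and 0.90.

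Rpl35 of the large subunit followed the mean of the other members most closely, with a correlation of 0.93 over 38 arrays. Over the same arrays 7 members correlated negatively with the mean of the others: Rps19 at -0.41, Rps19bp1 at -0.31, Rps27l at -0.26, Rpl36al at -0.24, Rpl7l1, a paralog of Rpl7, at -0.13, Rpl3l at -0.10 and Rpl4 at -0.00029. On the dim arrays alone only Rpl4 stayed negative, at -0.25. There Rps19 had 0.42, Rps19bp1 0.67, Rps27l 0.70 and Rpl36al 0.59.

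Among the genes outside the members whose values correlated most with the members' mean over 38 arrays were Gm4883 (0.97), Gm9151 (0.96), Gm4342 (0.95) and LOC100047305 (0.95). The array's own annotation describes Gm9151, Gm4342 and LOC100047305 as similar to Rps2, Rpl35 and Rps28, and all of those named as predicted models.

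The least variable members over the 38 arrays were Rps10 (SD 0.25), Rpl10a (SD 0.28) and Rps9 (SD 0.31). For Rps10 the LFC arrays ran from 3.99 to 4.52, apart from 4.86 at Week 15, and HFC from 3.89 to 4.68. The most variable were Rpl3l (SD 2.26), Rpl6 (SD 1.43) and Rpl21 (SD 1.21), the last 2 being proteins of the large subunit. The kept Rpl21 probe, on a predicted model, differed by -1.74 between bright and dim arrays. A second Rpl21 probe, on a RefSeq transcript and well above background on 34 arrays, had an SD of 0.51 and differed by -0.08.

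For Rpl6 the spread came from a few arrays of the kept probe, with -0.27 in LFC at Day 14, -0.44 in HFC at Day 10, 2.33 in HF20 and 2.50 in HF75 at Week 15, while other arrays lay at 3.09 to 5.82. A second Rpl6 probe on the same RefSeq accession had an SD of 0.25, so the low values were seen with only 1 of its probes.

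Rpl3l stood apart from the ribosomal genes and moved with skeletal muscle genes. Its group means were -4.44 ± 1.99 (SD, n = 10) in LFC, -4.13 ± 2.05 (SD, n = 10) in HFC, -4.45 ± 1.81 (SD, n = 6) in HF5, -2.85 ± 3.02 (SD, n = 6) in HF20 and -4.42 ± 2.88 (SD, n = 6) in HF75. Single arrays ran from -8.02 (HF75, Week 3) to 1.08 (HF20, Week 15), and each of the groups covered a wide part of this range. The arrays above 0 were HFC at Day 10 with 0.94, HF20 at Weeks 3 and 15 with 0.67 and 1.08, and HF75 at Week 12 with 0.77.

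Against the mean of 12 skeletal muscle genes (Acta1, Ckm and others of the contractile apparatus) Rpl3l had a Pearson r of 0.91 and a Spearman rho of 0.90 over 38 arrays. Both permutation p values were 1e-05, the smallest that 100000 permutations can give, and 1.333e-05 after Benjamini-Hochberg adjustment over the 4 sets of arrays. Without the 2 arrays farthest from the median muscle level r was 0.88 and rho 0.88. On the dim arrays alone r was 0.90 and rho 0.84. On the bright arrays alone r was 0.94 and rho 0.85, with permutation p values of 0.00012 and 0.00152. The muscle mean ran from -5.37 to 3.19 in LFC, from -4.65 to 4.39 in HFC, from -2.18 to 0.92 in HF5, from -4.55 to 4.31 in HF20 and from -3.34 to 5.26 in HF75. Since Rpl3l was well above background on 17 arrays alone, its low values are loosely measured.

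**Figure D3:**
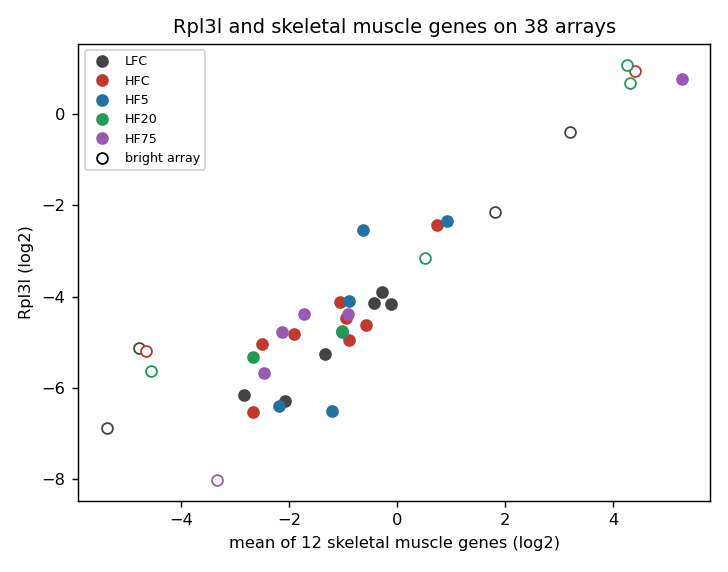
Log2 value of Rpl3l against the mean log2 value of 12 skeletal muscle genes on the 38 arrays, by group, with bright arrays drawn open. Points rise together from -8.02 for Rpl3l at the lower left to 1.08 at the upper right, and bright and dim arrays both span the range.

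The effect of diet was asked by comparing HFC with LFC within the 10 time points. No member passed an adjusted p of 0.05, and neither did any other gene (0 of 21625, 0%). The members' median change was 0.05, the same as the 0.05 of all genes tested, with 50 members higher and 35 lower in HFC. The median turned with saturated spots set to missing (-0.06, 21 higher), with a term for bright arrays (-0.06, 25 higher), with normexp (-0.12, 24 higher) and on dim arrays alone (-0.10, 19 higher). At an unadjusted p under 0.05 there were 0 members, against 6.82% of all genes.

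The largest single difference was that of Rpl21, at 0.78 (SE 0.37, limma adjusted p 0.652), higher in HFC at 7 of 10 time points. LFC ran from 0.19 to 3.59 and HFC from 1.31 to 4.98, so the groups overlapped over most of their range. These are values of the kept Rpl21 probe, on a predicted model, and its less variable second probe was not fitted alone. Rps19bp1 had -0.49 (SE 0.27, limma adjusted p 0.652) and was lower in HFC at 7 of 10 time points. The other members closest to the threshold were Rps2 at 0.41 and Rps28 at 0.35 on the higher side, and Rps27l at -0.36 and Rpl10 at -0.28 on the lower side. In the P stalk, the flexible arm of the large subunit that recruits elongation factors, the differences were 0.26 for Rplp0, 0.43 for Rplp1 and 0.44 for Rplp2.

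The members' median difference moved with the brightness of the paired arrays. It was 0.73 at Week 0 and 0.88 at Week 9, where LFC was measured on a bright and HFC on a dim array, and -0.59 at Day 10, where the reverse held. Week 12 also had a bright LFC array, and there it was -0.0026. At the other 6 time points it lay between -0.28 and 0.11.

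The time course was asked by a common slope of both diets over days. Again 0 members passed the adjusted threshold, where 304 of all genes did (1.41%). The median slope of the members was 0.10 per 100 days and that of all genes 0.05, with 61 positive and 24 negative slopes among the members.

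The smallest p belonged to Rpl7l1, with a slope of -0.70 per 100 days (SE 0.19, limma adjusted p 0.0583). Its values lay between 0.28 and 1.19 up to Week 0 and between -0.40 and -0.33 at Week 18. With quantile normalization its adjusted p was 0.0368, and with a term for bright arrays 0.0263, and over 21 alternatives it ranged from 0.0263 to 0.532, the last without Week 18. Rps4y2, a paralog of Rps4x, had a slope of 0.49 (adjusted p 0.123) and Rpl30 of 0.47 (adjusted p 0.195). Rpl21 had 0.79, Rpl4 -0.43 and Rpl3, which lies at the peptidyl transferase centre, -0.33. With normexp background correction 8 members passed, beside 3.44% of all genes, and the members' median slope was -0.64. The direction of the members over days thus depended on the background correction.

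Whether the diet difference moved with time was asked by the difference of the 2 slopes. No member passed (0 of all genes, 0%), and the median was -0.14 per 100 days, against -0.01 for all genes. Rpl21, on the same kept probe, had the largest value, 1.55 (SE 0.68, limma adjusted p 0.312). Its HFC array of Week 18, at 4.98, lay above the other HFC arrays. On the lower side Rps27a, made as a fusion with ubiquitin, had -0.64, Rpl3 -0.54 and Rpl10a -0.51. On the higher side Rplp2 had 0.43 and Rpl27a 0.38.

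The effect of Kal-1 was asked by comparing each dose with HFC within Weeks 3 to 18. The 3 comparisons share the same HFC arrays, so their values are given side by side and are not set against each other. At each dose 0 of 21625 genes (0%) passed an adjusted p of 0.05, members included. The group means of the members' median, each over the arrays of the group, were 5.93 ± 0.27 (SD, n = 10) in LFC, 5.92 ± 0.31 (SD, n = 10) in HFC, 6.36 ± 0.23 (SD, n = 6) in HF5, 5.87 ± 0.37 (SD, n = 6) in HF20 and 6.08 ± 0.26 (SD, n = 6) in HF75. Among the doses, HF5 held 0 bright arrays and HF20 held 4.

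At 5 µg most members were higher than in HFC in estimate. The members' median difference was 0.45, against 0.02 for all genes, and 79 of 85 members were higher. At an unadjusted p under 0.05 there were 19 members higher (22.4%) and 0 lower, against 3.46% of all genes higher. In estimate, 42 of 46 members of the large subunit were higher, with a median of 0.42, 30 of 31 of the small subunit, with 0.50, and 7 of the 8 paralogs and binding protein tested, with 0.28. Bright genes as a whole moved in a like way, as the 1647 other genes with a mean value over 4 had a median of 0.35, with 1460 of them higher and 231 (14.0%) higher at an unadjusted p under 0.05.

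The difference was uneven over time. In the order of Weeks 3 to 18 the members' median difference was 0.50, -0.05, 0.24, 0.78, 0.16 and 1.09. The HFC array of Week 3 was bright. The HFC arrays of Weeks 12 and 18 had the highest all-gene medians of any array, -0.67 and -0.78. Their members' medians were 5.61 and 5.50, where the dim arrays averaged 6.13. Against the same HFC arrays the members' median difference was 0.49 and 0.93 in HF75, and 0.01 and 0.70 in HF20. The part of these HFC arrays in the difference at 5 µg was not tested beyond leaving out single weeks. Members never saturated had a median of 0.28, with 36 of 42 higher, and those saturated on over 5 arrays 0.64, with 25 of 25 higher. With quantile normalization the median was 0.08 and 0 members had an unadjusted p under 0.05, so the size of this difference depended on the scaling. Without Week 18 the median was 0.29, with 1 such member, and without Week 12 it was 0.39, with 0. Without Week 3 it was 0.42, with 2, and on the dim arrays alone also 0.42, with 18. The share of all genes at the unadjusted threshold was not counted under these alternatives.

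The 3 members with the smallest p were Rps4y2, Rps24 and Rpl35, all with a limma adjusted p of 0.814. In order of weeks, Rpl35 read 5.89, 5.93, 6.37, 6.33, 6.09 and 6.73 in HF5 and 5.28, 5.80, 6.26, 5.32, 5.81 and 5.58 in HFC. HF5 was thus higher at 6 of 6 weeks, by 0.55 (SE 0.22) on average, though the highest HFC arrays reached into the HF5 range. Rps24, a small subunit protein, read 6.73, 6.77, 7.21, 7.40, 6.82 and 7.44 in HF5 and 5.64, 6.76, 7.11, 5.90, 6.71 and 6.31 in HFC. It was also higher at 6 of 6 weeks, by 0.66 (SE 0.26), with little difference at Weeks 6, 9 and 15.

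Rps4y2 read 3.43, 3.38, 4.18, 4.84, 3.72 and 4.32 in HF5 and 3.11, 3.23, 3.69, 3.36, 3.30 and 3.19 in HFC, a difference of 0.67 (SE 0.25) with the widest gaps at Weeks 12 and 18. In the P stalk the differences were 0.57 for Rplp0, 1.01 for Rplp1 (SE 0.49, higher at 6 of 6 weeks) and 0.90 for Rplp2. There were 16 members higher at 6 of 6 weeks and 61 higher at 5 or 6. For 0 members did all HF5 values lie above all HFC values of the same weeks. These counts were not made for all genes. Of the 1647 other genes with a mean over 4, 980, 673, 1440, 1368, 1373 and 1535 were higher in HF5, in order of weeks. The lowest differences with the smallest p were those of Rps19 at -0.18, Rpl21 at -0.26 and Rpl4 at -0.11.

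At 20 µg the members' median difference was -0.09, against -0.18 for all genes, with 27 of 85 members higher. At an unadjusted p under 0.05 there were 5 members higher (5.88%), against 13.4% of all genes, and 0 lower. With a term for bright arrays, on the dim arrays alone or without Week 12 there were 0, and without Week 15 there was 1. All genes were not counted under these alternatives. The 5 members of the main fit were Rps19, Rps19bp1, Rpl36al, Rpl7l1 and Rps27l, which also correlated negatively with the other members over all arrays and read higher on bright than on dim arrays. Rps19bp1 was higher by 0.99 (SE 0.36, higher at 5 of 6 weeks, limma adjusted p 0.121). Rps19 had 0.94 (5 of 6 weeks, adjusted p 0.123), Rpl36al 0.70 (6 of 6 weeks, 0.122), Rps27l 0.75 (5 of 6 weeks, 0.14) and Rpl7l1 0.51 (6 of 6 weeks, 0.139).

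On the lower side Rpl6 had -0.77 (limma adjusted p 0.178), Rps23 -0.84 and Rplp2 -0.75. Rplp1 had -0.75 and Rplp0 -0.39. In the order of Weeks 3 to 18 the members' median difference was -0.11, -0.75, -0.01, 0.01, -0.50 and 0.70. The HF20 array was bright at Weeks 3, 6, 12 and 15, and the HFC array at Week 3 of these. Members never saturated had a median of 0.03 and those saturated on over 5 arrays -0.33. With a term for bright arrays the members' median was 0.20, with 81 higher, and on the dim arrays alone 0.28, with 78 higher, so the direction of the median turned. Leaving out Week 3 left 2 members, Rps19bp1 and Rps19, past the adjusted threshold, where 15.5% of all genes passed. The mitochondrial ribosomal protein genes were higher than in HFC for 75 of 75, with a median of 1.06, and 60 of them had an unadjusted p under 0.05. Their median difference was 1.69, 2.04 and 2.35 at Weeks 6, 12 and 15, where a bright HF20 array was set against a dim HFC array. It was -0.18 at Week 3, where both were bright and 66 of 75 were lower, and 0.13 and 0.41 at Weeks 9 and 18, where both were dim.

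At 75 µg the members' median difference was 0.16, against -0.03 for all genes, with 60 of 85 higher. At an unadjusted p under 0.05 there were 2 members (2.35%), against 9.26% of all genes in either direction. They were Rps15a, a small subunit protein, at 0.49 (SE 0.21, higher at 5 of 6 weeks) and Rps19 at -0.83 (SE 0.37, lower at 6 of 6 weeks), each with a limma adjusted p of 0.533. Rpl22l1, the paralog of Rpl22, had 0.51, Rpl39, which lines the exit tunnel, 0.46, Rpl21 -0.70 and Rpl36al -0.34. Members never saturated had a median of -0.04 and those saturated on over 5 arrays 0.23. With normexp background correction the members' median was -0.35. Without the HF75 array of Week 3, which stood apart in its markers, the median was 0.21 with 64 higher, 0 members had an unadjusted p under 0.05, Rps19 had -0.61 (limma adjusted p 0.803), Rps15a 0.42 (0.803) and Rpl21 -0.23. All genes at the unadjusted threshold were not counted without that array.

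Among the paralogs, in the order of 5, 20 and 75 µg, the difference from HFC was 0.48, -0.26 and 0.51 for Rpl22l1, 0.57, 0.45 and -0.58 for Rpl39l, 0.31, 0.51 and 0.18 for Rpl7l1, and 0.16, 0.70 and -0.34 for Rpl36al. It was 0.15, 0.75 and -0.08 for Rps27l, 0.67, 0.19 and 0.40 for Rps4y2, and -0.13, 1.46 and -0.10 for Rpl3l, whose SE was 1.12. None of these passed the adjusted threshold in any of the 3 comparisons, and the paralogs did not share 1 order of doses. The least variable members stayed within 0.34 of HFC, as Rps10 had 0.23, 0.12 and -0.09, Rpl10a 0.13, 0.13 and 0.05, and Rps9 0.34, 0.17 and -0.09.

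**Figure D4:**
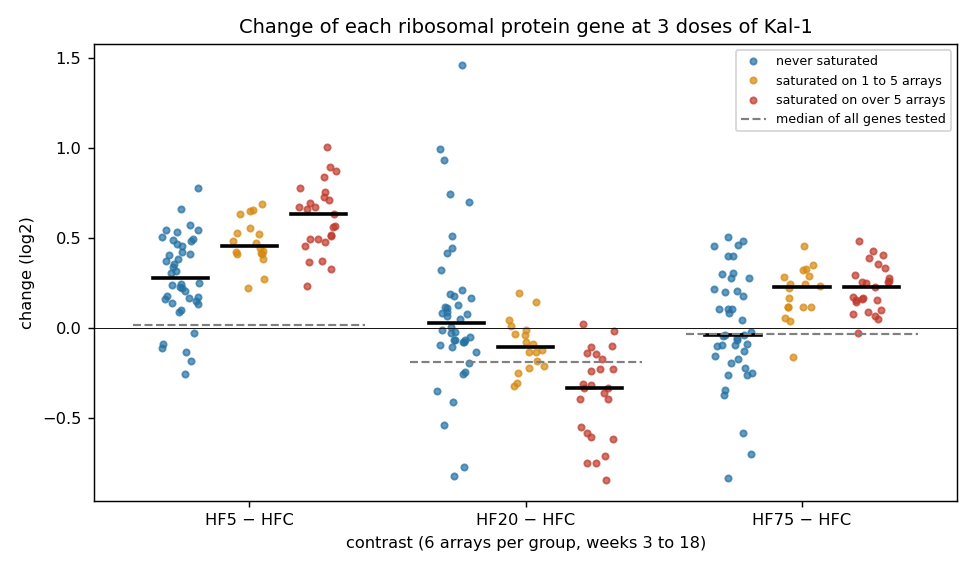
Log2 difference of each member tested between a Kal-1 dose and HFC in the fit over Weeks 3 to 18 (6 arrays per group), with members split by how often the kept probe was saturated, a black bar at the median of each class and a dashed line at the median of all genes. At 5 µg the members' median was 0.45 against 0.02 for all genes, and at 20 µg the members saturated on over 5 arrays had a median of -0.33.

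Whether the 3 doses differed among themselves was asked with a moderated F test. Of the members 5 passed the adjusted threshold (5.88%), against 2974 of all genes (13.8%), so the share of members lay below that of the array. At an unadjusted p under 0.05 there were 33 members (38.8%), against 37.3%. Between HF20 and HF5 73 members were lower and 12 higher in HF20, with a median of -0.56, against -0.23 for all genes. By saturation the median was -0.34 for members never saturated, -0.55 for those saturated on 1 to 5 arrays and -0.96 for those saturated more often. The 5 members were Rps19, Rpl27a and Rpl36al, which were never saturated, and the acidic stalk proteins Rplp1 and Rplp2, each saturated on 16 arrays.

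Rps19, in the order of Weeks 3 to 18, read 1.69, 1.76, 2.50, 1.39, 1.68 and 1.80 in HF5, 2.94, 3.25, 2.37, 3.78, 3.39 and 1.77 in HF20 and 0.60, 1.19, 1.59, 1.39, 1.67 and 0.46 in HF75. The 4 highest values are those of the bright HF20 arrays, and at Weeks 9 and 18, where the HF20 arrays were dim, HF20 lay just below HF5. The group means were 1.80 ± 0.37 in HF5, 2.92 ± 0.73 in HF20 and 1.15 ± 0.51 in HF75 (SD, n = 6 each). HF20 differed from HF5 by 1.12 and HF75 from HF5 by -0.65 (limma adjusted p 0.0338). The HFC arrays of the same weeks read 3.16, 1.42, 2.32, 1.95, 1.68 and 1.36, and the highest of these is the bright HFC array.

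Rpl27a, a protein of the large subunit, read 3.85, 3.92, 4.44, 5.02, 3.99 and 4.05 in HF5, 2.25, 2.02, 3.81, 2.98, 2.56 and 3.75 in HF20 and 3.45, 3.77, 3.58, 4.12, 4.10 and 4.32 in HF75. All HF5 values lay above all HF20 values, and again the 4 low HF20 arrays were the bright ones. HF20 differed from HF5 by -1.32 and HF75 from HF5 by -0.32 (limma adjusted p 0.0359).

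Rpl36al read 2.04, 1.77, 2.83, 2.42, 2.54 and 2.79 in HF5, 3.07, 2.41, 2.74, 3.46, 3.57 and 2.37 in HF20 and 1.85, 1.72, 2.06, 1.87, 2.09 and 1.76 in HF75. HF20 lay above HF75 on all arrays and overlapped with HF5. The differences from HF5 were 0.54 for HF20 and -0.51 for HF75 (limma adjusted p 0.0402). With a term for bright arrays the first of these was -0.066, and on the dim arrays alone -0.030.

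In the P stalk, Rplp1 read 8.45, 8.19, 9.50, 9.79, 8.47 and 9.83 in HF5, 6.20, 6.45, 9.02, 6.51, 6.60 and 8.91 in HF20 and 6.25, 8.49, 8.38, 9.51, 8.46 and 9.55 in HF75. The 5 values under 7 are those of the bright arrays, on all of which Rplp1 was saturated, and the 2 dim HF20 arrays lay inside the HF5 range. The difference from HF5 was -1.75 for HF20 and -0.60 for HF75 (limma adjusted p 0.047). Rplp2, its partner, gave -1.64 and -0.74 (limma adjusted p 0.0486), with 7.11 ± 1.22 in HF20, 8.76 ± 0.79 in HF5 and 8.02 ± 1.09 in HF75 (SD, n = 6 each). Rplp0, which anchors the stalk to the ribosomal RNA, gave -0.96 and -0.41 and did not pass.

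The size of these differences was smaller where brightness was taken into account. With a term for bright arrays, HF20 minus HF5 was 0.32 for Rps19, -0.51 for Rpl27a, -0.35 for Rplp1 and -0.32 for Rplp2, and on the dim arrays alone 0.19, -0.40, -0.46 and -0.42. With saturated spots set to missing, Rplp1 had -0.47 (limma adjusted p 0.687) and Rplp2 -0.42 (0.510), whereas Rps19, Rpl27a and Rpl36al, with no saturated spots, kept their values. With a term for bright arrays, on the dim arrays alone, or without the HF75 array of Week 3, 0 members and 0 of all genes passed this test. Leaving out Week 3, 6, 12 or 15 also left 0 members and 0 genes. Leaving out Week 9 gave 22 members, beside 24.8% of all genes, and leaving out Week 18 gave 12, beside 25.1%. Single time points thus decide the count. Of the 6 HF20 arrays 4 were bright and of the 6 HF5 arrays 0, so these groups share brightness only at Weeks 9 and 18. Against HFC, Week 3 also pairs arrays of like brightness.

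**Figure D5:**
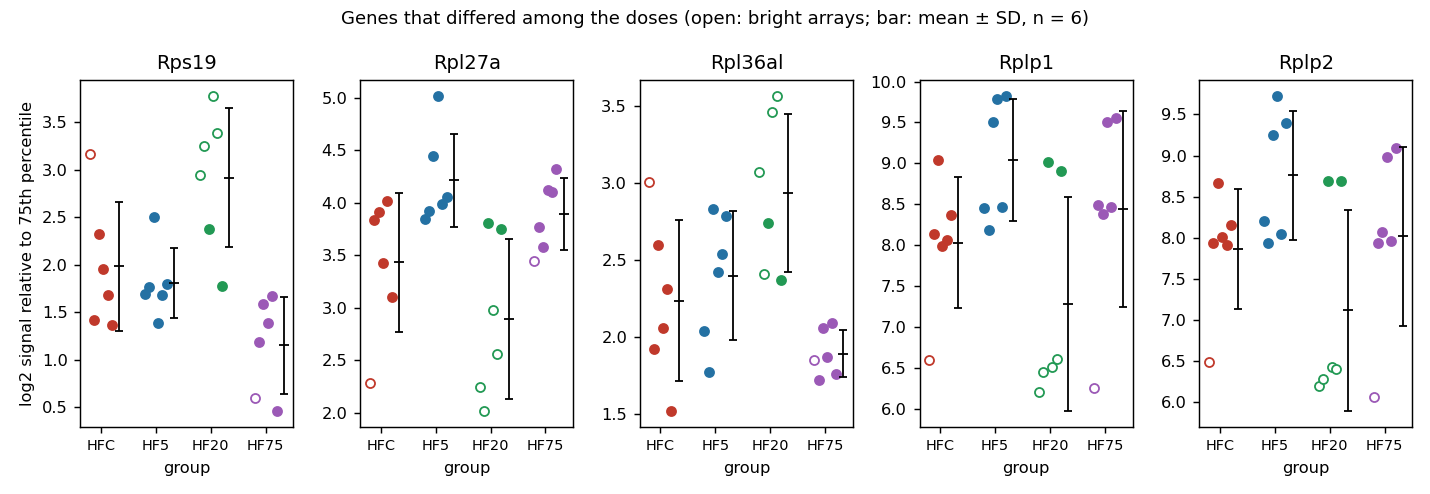
Log2 signal of the 5 members that differed among the doses, for each array of HFC, HF5, HF20 and HF75 at Weeks 3 to 18, with bright arrays drawn open and bars at the mean ± SD (n = 6). The open HF20 points of Rplp1 lie at 6.20 to 6.60 and its filled HF20 points at 8.91 and 9.02.

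The other genes of the translation machinery were followed by lists. In the comparisons of diet, of each dose with HFC and of diet by day, 0 genes of these lists passed the adjusted threshold. The lists held 11 elongation factors, 35 initiation factors, 37 genes of ribosome biogenesis, 13 of RNA polymerase I, 17 of mTORC1 and Myc control, and 75 mitochondrial ribosomal proteins. At 5 µg the median differences were 0.16, 0.24, 0.03, 0.0050, -0.19 and -0.01 in that order.

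In the test of differences among doses 34 of the 75 mitochondrial ribosomal protein genes passed, beside 13.8% of all genes, and their median difference of HF20 from HF5 was 1.02. In the mTORC1 and Myc list 6 of 17 passed, with HF20 above HF5 by 1.26 for Akt1s1, an inhibitor within the kinase complex, 0.94 for Eif4ebp2, a repressor of cap-dependent initiation, and 1.67 for Rragd, a GTPase that brings mTORC1 to the lysosome. Of the initiation factors 3 of 35 passed, with 1.05 for Eif4g1, the scaffold of the cap complex, 0.91 for Eif2b1 and 0.57 for Eif2b5. The elongation factors gave 2 of 11, with 0.66 for Eef2, which moves the ribosome along the message, and 0.56 for Eif5a. Of the biogenesis genes 3 of 37 passed, with 1.46 for Wdr12, 0.79 for Ftsj3 and 0.69 for Nat10. For RNA polymerase I the count was 0. None of these list calls stood under the settings that left 0 of all genes, which were a term for bright arrays, dim arrays alone, normexp, no filter, and leaving out the HF75 array of Week 3 or any of Weeks 3, 6, 12 and 15.

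In the trend over days 4 genes of the lists passed, beside 1.41% of all genes. The slopes per 100 days were -1.18 for Eef2 (limma adjusted p 0.0308), -0.95 for Eif5a (0.0383), -1.11 for Eif4g1 (0.0279) and 1.39 for Eif2s3x (0.0383), a subunit of the initiation factor that carries the first transfer RNA. The medians of the elongation and initiation lists were -0.06 and -0.15, so these genes lay at the ends of their lists. With the scan day as a random block only 2 of all genes passed the trend test, and without Week 18 only 7, so at most 2 of these 4 calls stand under the first.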

How the data were processed

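Total RNA of brown adipose tissue was labelled with Cy3 and hybridised to custom mouse arrays of 1 colour. The deposited scanner files hold spot intensity values from Feature Extraction 10.5.1.1 per the file headers, whereas the submitters' processing notes name version 9.1. The authors' processed signal in them is background-corrected and not scaled between arrays. A deposited table of log2 values, which the authors set against LFC at each time point, served as an alternative only, without Week 15. There were 32 slides and 12 scan days for the 38 arrays. The number of arrays limits precision.

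From the intensity values, outlier spots were left out (10 member values were missing as a result), log2 was taken, and each array was scaled by subtracting its 75th percentile. Among several probes of a gene the one with the highest mean represented it. Tests covered genes with signal well above background on 6 arrays or more. The kept probes' design accessions matched RefSeq for 81 members, 79 with the same symbol (the array's Rps3a and Rps4y2 are Rps3a1 and Rps4l there). Promoters are those of RefSeq on GRCm38.p6.

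All comparisons were fitted in R 4.3.3 (data.table version 1.17.8) with lmFit and eBayes of limma 3.58.1. Tests were two-sided, adjusted by Benjamini-Hochberg over every gene tested, and called at 0.05. Diet, and diet by day, were fitted on the 20 LFC and HFC arrays, blocked by time point. The trend had diet in place of that block. The doses were fitted on 30 arrays (Weeks 3 to 18), also blocked, and compared among themselves by the moderated F test. The slopes count a week label as 14 days plus 7 days per week. The time point is a shared label of separate arrays. Deviations from the group means correlated between same-time arrays with a median of 0.40 for HFC and LFC (-0.24 to 0.67, over 0.1 in 7 of 10). With HFC, the median was 0.42 for HF5 (over 0.1 in 5 of 6) and 0.25 for HF75 (4 of 6). For HF20 it was 0.12 (-0.35 to 0.30, over 0.1 in 3 of 6).

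Named genes are members past the threshold, or otherwise the 3 with the smallest p in each direction, the paralogs, the P stalk, the 3 most and 3 least variable members, and for other lists those past the threshold (at most 3 per direction). Some genes that this rule or a list selects are not reported here. The boundary of 600 intensity units between dim and bright arrays, the members and the lists were chosen with earlier results of these data known. The fits were tested on simulated data, drawn independently for each gene with large added changes and without differences in brightness or saturation. That test therefore cannot show how the fits handle bright arrays or small changes. Alternatives were quantile normalization, normexp (offset 50), saturated spots as missing, other filters and probe rules, terms for brightness, slide, scan day or no block, the deposited table, Day 14 joined with Week 0, and leaving out each time point or the HF75 array of Week 3. The brightest never saturated probe and the dim arrays alone were added after seeing the data.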

Additional observations from a re-analysis of the deposited data

Results flagged for a closer look

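Single arrays that lay far from the rest of their group, judged by the gap to the nearest array over the range of the group, were sought in 155 sets of values. There were 11. The rule flags about 1 in 20 sets by chance, but some genes were picked for their spread or changes in these same values. That rate therefore does not hold for these sets. Rpl6 was low in LFC at Day 14 (-0.27, the nearest array 3.71) and in HFC at Day 10 (-0.44, nearest 3.22). Rpl10, a late-joining protein of the large subunit, was low in HFC at Day 10 (1.78, nearest 4.00), and Rpl21 was high in HFC at Week 18 (4.98, nearest 3.05). In HF5 Rps19 was high at Week 9 (2.50, nearest 1.80). In HF20 Rpl39l, a paralog of Rpl39, was low at Week 6 (-3.50, nearest -1.04). In HF75 the members' median was high at Week 18 (6.59, nearest 6.07). The HF75 array of Week 3, the bright one of its group, was low for Rpl21 (-1.12, nearest 2.28), Rplp0 (6.31, nearest 7.62), Rplp1 (6.25, nearest 8.38) and Rps2 (6.12, nearest 7.32).

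The doses differed in 5 members by the moderated F test. HF20 minus HF5 was 1.12 for Rps19, -1.32 for Rpl27a, 0.54 for Rpl36al, -1.75 for Rplp1 and -1.64 for Rplp2. With a term for bright arrays the same differences were 0.32, -0.51, -0.066, -0.35 and -0.32, and on the dim arrays alone 0.19, -0.40, -0.030, -0.46 and -0.42. The 4 bright arrays of HF20 hold the extreme values of Rps19, Rpl27a and Rplp1, and the part of brightness beyond the alternatives given was not tested.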

How the results depend on the processing

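With 1 array per group and time point, the spread between time points is the only error, and it joins time and animals. Bright arrays had saturated spots and HF20 held 4 of them, so dose and brightness are only partly separable, and values from dim arrays alone rest on few pairs. Over the alternatives other than leaving out a time point, 482 values of named genes kept direction and side of the threshold. There, 30 lost and 4 gained the call, and 21 reversed, while 179 summary values moved little and 21 moved more. Leaving out single time points changed further calls and directions, which are not in these counts. The cause of these changes was not tested.

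At 5 µg, members higher at an unadjusted p under 0.05 numbered 0 with quantile normalization, 41 with the slide as a random block and 11 with no replicate block, against 19. All genes at this unadjusted threshold were not counted under these alternatives, so these numbers cannot be set beside a share of the array. The members' median of HF20 minus HF5 was -0.30 with quantile normalization, -0.15 with a term for bright arrays, -0.31 with the never saturated probes and -0.14 on dim arrays. Members that differed among doses numbered 3 with quantile normalization, beside 11% of all genes, and 20 with signal required on all arrays, beside 34.1%. They numbered 33 with the slide as a block, beside 29.6%, and 2 with no replicate block, beside 6.07%. The count was 0 with normexp, no filter, a term for bright arrays, dim arrays alone or without the HF75 array of Week 3. In the trend 1 member passed with quantile normalization, beside 4.25% of all genes, or with a term for bright arrays, beside 7.87%. With normexp 8 members passed, beside 3.44%, and the median slope was -0.64. At 75 µg the median was -0.35 with normexp. Blocking by time point changed no other call.

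Directions reversed as follows. At 5 µg Rps19 was 0.0071 with normexp, 0.018 with a term for bright arrays, 0.077 on dim arrays and -0.31 to 0.077 when 1 week was left out (the last without Week 3), Rpl4 0.19 with normexp, and Rpl21 0.17 with the mean of probes. At 20 µg Rps23 was 0.43 with saturated spots missing, 0.28 with the brightness term and 0.40 on dim arrays, and Rplp2 0.32, 0.24 and 0.31. Under normexp Rps15a was -0.077 and Rpl39 -0.12 at 75 µg, and Rps4y2 -0.23 and Rpl30 -0.32 in the trend, while Rpl21 had -0.16 (without Week 18) to 1.08 in the trend when 1 time point was left out. For diet by day Rplp2 was -0.24 with saturated spots missing, -0.10 with the brightness term, -0.25 on dim arrays and -0.013 (without Day 10) to 0.998 when 1 time point was left out, and Rpl27a -0.0091 with the brightness term. HF20 minus HF5 of Rpl36al was -0.066 with the brightness term and -0.030 on dim arrays.

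Leaving out 1 time point at a time gave members' medians of -0.05 to 0.11 for HFC against LFC, 0.29 to 0.54 at 5 µg, -0.25 to 0.02 at 20 µg, -0.02 to 0.25 at 75 µg, -0.61 to -0.50 for HF20 minus HF5, -0.01 to 0.21 for the trend and -0.28 to 0.02 for diet by day. Members past the threshold ran from 0 to 22 among doses, 0 to 2 at 20 µg and 0 to 1 in the trend, and were 0 in the other comparisons. In that order, the highest counts stood beside 24.8%, 15.5% and 2.82% of all genes. Members at an unadjusted p under 0.05 at 5 µg ran from 0 to 29, with no count of all genes made beside them.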
